A study of Mus musculus with 19 samples.

Results

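Genes of cholesterol synthesis were followed from layer to layer in the primary somatosensory cortex (S1) of adult mice. The set holds 8 genes and was chosen by name, with earlier results of these data known. Its comparison with all genes is therefore a description. Hmgcs1, Fdps, Fdft1, Sqle, Lss, Cyp51 and Dhcr7 encode enzymes of the pathway, and Insig1 encodes a protein of the endoplasmic reticulum that holds the pathway back when sterol is plentiful. Of these, 7 were found among the 24130 Ensembl genes listed in at least 1 of the 7 S1 libraries, and Hmgcs1, which was not matched by its identifier, is not analysed here. All 7 passed the filter for testing, a mean of at least 1 FPKM (fragments per kilobase of transcript scaled to the number of mapped fragments), as did 13164 genes in all.

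The S1 of untreated male C57BL/6J mice, 56 days old, was cut into 6 adjacent segments from the pial surface to the white matter. Segment A held mostly layers 1 to 3, B layer 4, C and D the upper and lower parts of layer 5, E layer 6 and F layer 6b. Polyadenylated RNA of A, C, D, E and F was pooled from the same 8 mice into 1 library each. B gave 2 libraries, B1 and B2, each from 4 littermates among these mice (n = 2). The dissections approximate the layers and overlap between neighbors, and 12 further samples, of dorsal and of lateral cortex, were not analysed.

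The adult brain makes its own cholesterol, because lipoproteins of the blood do not pass the blood-brain barrier. The pathway leads from acetyl-CoA through mevalonate to farnesyl pyrophosphate, then through squalene to lanosterol, and from lanosterol in many steps to cholesterol. Its genes are switched on together by SREBP-2, the product of Srebf2, which is cleaved and enters the nucleus when membranes run short of sterol, and myelin, the membrane that oligodendrocytes wrap around axons, is the largest store of cholesterol in the brain.

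SREBP binds sterol regulatory elements and acts with factors at CCAAT and GC boxes, so the bases before the start of these genes are shown first. RefSeq promoter windows of the mouse build GRCm38.p6 were given for 5 of the 8 genes, Hmgcs1, Dhcr7, Lss, Cyp51 and Insig1. The windows below are written 5′ to 3′ along the gene and end before its first annotated exon. Capitals mark the letters TCACNCCAC (a form of the sterol regulatory element), CCAAT and GGGCGG on either strand, so that ATTGG and CCGCCC are also in capitals, and no match overlaps another. Hmgcs1 lies at chr13:119690101-119690350 on the plus strand, Lss at chr10:76531355-76531587 on the plus strand, Cyp51 at chr5:4104747-4104947 on the minus strand and Insig1 at chr5:28071162-28071362 on the plus strand.
Hmgcs1: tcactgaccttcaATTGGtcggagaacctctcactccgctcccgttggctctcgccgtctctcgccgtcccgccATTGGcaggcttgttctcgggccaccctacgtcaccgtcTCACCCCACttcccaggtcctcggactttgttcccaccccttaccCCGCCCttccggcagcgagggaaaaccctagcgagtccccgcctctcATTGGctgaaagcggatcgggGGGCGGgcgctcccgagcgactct
Lss: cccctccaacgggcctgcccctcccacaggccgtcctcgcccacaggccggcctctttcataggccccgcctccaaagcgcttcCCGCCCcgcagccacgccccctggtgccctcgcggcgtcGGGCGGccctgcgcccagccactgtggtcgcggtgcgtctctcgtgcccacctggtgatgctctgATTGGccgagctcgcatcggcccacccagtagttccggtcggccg
Cyp51: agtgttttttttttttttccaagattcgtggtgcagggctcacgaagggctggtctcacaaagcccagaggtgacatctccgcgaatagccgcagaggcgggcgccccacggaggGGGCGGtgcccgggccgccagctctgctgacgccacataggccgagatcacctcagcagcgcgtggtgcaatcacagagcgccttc
Insig1: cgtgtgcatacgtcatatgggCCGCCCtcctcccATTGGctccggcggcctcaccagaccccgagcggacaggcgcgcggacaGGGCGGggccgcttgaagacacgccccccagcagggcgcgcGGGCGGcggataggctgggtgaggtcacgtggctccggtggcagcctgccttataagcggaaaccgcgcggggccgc

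The sterol regulatory element was matched in the 250 bases before the start of 1 of the 5 genes, Hmgcs1, and in 1.22% of all 27025 genes with a window. CCAAT was matched in 5 of the 5 and in 37.5% of all genes, and GGGCGG in 5 of the 5 and in 35.4% of all genes. The count covers 250 bases, of which 233 are printed for Lss and 201 for Cyp51 and Insig1, and the CCAAT of Cyp51 lies outside the printed bases. Dhcr7, for which none are printed, has 3 windows, any of which could hold a match, and CCAAT was matched in 1 of them. Among 16 enzymes of the pathway with a window, CCAAT was matched in 15 and the sterol regulatory element in 1, Hmgcs1 again. These matches describe letters in a short window, and no binding was measured.

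The values of the 7 libraries differed in ways that touch every gene. Depth, estimated from the deposited coverage, was lowest in A, with 31.3 M fragments, and highest in B2, with 74.9 M. Mitochondrial transcripts took 21.8% of the summed FPKM in A, 18.2% in B2 and 5.03% in F, and from 7.68% to 9.79% in the other libraries. As deposited, the median gene rose by 0.09 on the log2 scale per segment, and rescaling by the median of ratios (factors of 0.787 in A to 1.15 in F) removed this shift. A slope below 0.09 on the deposited scale is therefore a fall relative to the median gene. Some of the sequencing of F used reads of 75 nt in mapping instead of 50 nt. The average insert was shortest in A, at 164 nt, and longest in B1, at 239 nt, with 193 nt in B2. The part of read length and insert size in the results was not tested, and neither can be told apart from the segment or litter.

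Cholesterol synthesis genes were expressed at increasing levels from the superficial to the deep segments. On the deposited scale, all 7 genes had their highest FPKM in F, and 5 had their lowest in A. The share of all genes with these extremes was not counted. After rescaling by the median of ratios, Fdps was lower in F than in A (fold of 0.708). The linear trend with segment position rose in 6 of the 7 (limma moderated test on log2(FPKM + 0.1), Benjamini-Hochberg adjusted p under 0.05), where 16.2% of all genes tested rose. A linear and quadratic trend together passed in the same number, 6 of 7, where 43.7% of all genes passed. None of the 7 fell linearly, where 2.71% of all genes fell. The median slope of the 7 genes was 0.36 on the log2 scale per segment, and that of all genes 0.09. In bulk samples such as these, fewer cells of a type and less RNA per cell cannot be told apart.

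**Figure D1:**
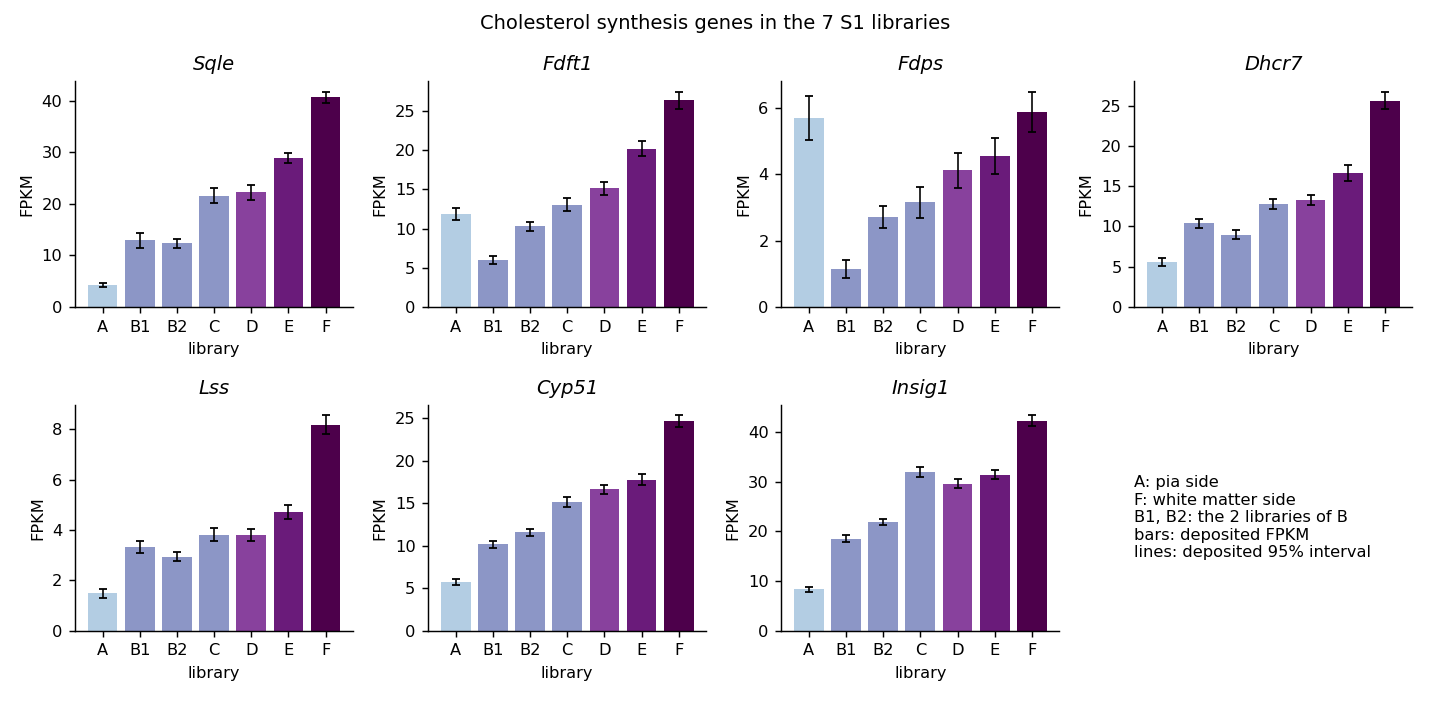
Deposited FPKM (linear axis from 0) of the 7 cholesterol synthesis genes in each library from A to F, with the deposited 95% interval as error bars. Each gene is highest in F. Fdft1 and Fdps are lowest in B1 and the other 5 genes in A.

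Fdps makes farnesyl pyrophosphate, the last intermediate that the pathway shares with the isoprenoid branches. Its FPKM was 5.69 in A, 1.14 and 2.72 in B1 and B2, 3.15 and 4.11 in C and D, 4.54 in E and 5.87 in F. Both ends of the cortex were high and layer 4 was low, so that F was 1.03 times A, and B2 was 2.38 times B1. The slope of 0.19 ± 0.15 (SE, 7 libraries) did not pass the test (limma, adjusted p = 0.353). From B2 upward no neighbors in the order of levels had intervals apart. Fdps had the thinnest evidence of the set, about 38 estimated fragments in B1.

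Fdft1, squalene synthase, makes the first intermediate committed to sterols. Its FPKM was 11.9 in A, 5.96 and 10.3 in B1 and B2, 13.1 and 15.1 in C and D, 20.2 in E and 26.4 in F. As for Fdps, A stood above both libraries of B, and B2 was 1.72 times B1. In the loci that the authors assembled de novo, however, A and B2 were nearly equal, at 6.12 and 6.39 FPKM. Fdft1 rose by 0.32 ± 0.09 per segment (limma, adjusted p = 0.0408), and F was 2.22 times A.

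Sqle, squalene epoxidase, catalyzes the first step that uses oxygen and is a rate-limiting enzyme. Its FPKM was 4.28 in A, 12.9 and 12.3 in B1 and B2, 21.5 and 22.3 in C and D, 28.9 in E and 40.7 in F. The deposited intervals separated A, B, C with D, E and F from each other, and B1 and B2 overlapped. Sqle had the largest slope of the 7 genes, 0.54 ± 0.09 (limma, adjusted p = 0.00966), and F was 9.50 times A.

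Lss closes squalene into lanosterol, the first sterol. Its FPKM was 1.49 in A, 3.32 and 2.95 in B1 and B2, 3.82 and 3.81 in C and D, 4.72 in E and 8.19 in F. The level in C and D did not differ beyond the intervals, and the step from E to F was 1.73-fold, the largest of the set. Lss rose by 0.37 ± 0.07 per segment (limma, adjusted p = 0.0140), and F was 5.49 times A.

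Cyp51 removes a methyl group from lanosterol. Its FPKM was 5.73 in A, 10.2 and 11.6 in B1 and B2, 15.2 and 16.6 in C and D, 17.8 in E and 24.7 in F. The intervals of no neighboring libraries overlapped in this order, although D and E were nearly in contact, at 17.21 and 17.22 FPKM. Cyp51 rose by 0.35 ± 0.06 per segment (limma, adjusted p = 0.0126), and F was 4.31 times A.

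Dhcr7 catalyzes the final step to cholesterol in the pathway through 7-dehydrocholesterol. Its FPKM was 5.61 in A, 10.4 and 8.98 in B1 and B2, 12.8 and 13.3 in C and D, 16.7 in E and 25.6 in F. C and D overlapped, and E and F stood apart from the rest and from each other. Dhcr7 rose by 0.37 ± 0.06 per segment and had the lowest adjusted p of the set (limma, 0.00717), and F was 4.56 times A.

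Insig1 holds the SREBP complex in the endoplasmic reticulum, and its own gene is a target of SREBP. Its FPKM was 8.35 in A, 18.5 and 21.9 in B1 and B2, 31.9 and 29.6 in C and D, 31.4 in E and 42.3 in F. The level was nearly flat from C to E, with E overlapping both C and D, and F stood above all of them. Insig1 rose by 0.36 ± 0.09 per segment (limma, adjusted p = 0.0307), and F was 5.06 times A.

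The share of each gene's expression that fell in E and F together, with B taken as the mean of B1 and B2, ranged from 41.2% for Fdps to 53.4% for Sqle. The median was 49.1%, against 36.5% over all genes tested. The share in A was 3.29% for Sqle, between 5.10% and 6.71% for Insig1, Lss, Cyp51 and Dhcr7, 12.5% for Fdft1 and 22.5% for Fdps, against a median of 12.7% over all genes. The 2 genes with the largest shares in A were those with their lowest FPKM in B1.

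The steps between neighboring segments were unequal. The deposited intervals of both B libraries lay above that of A in 5 of the 7 genes (37.1% of all genes), and that of C above both B libraries in 6 (24.4%). D lay above C in 2, Fdft1 and Cyp51 (13.9%), E above D in 5 (22.2%) and F above E in all 7 (24.7%). F lay above A in 6 of the 7, all except Fdps (56.2%), and A above F in none (22.9%). The median fold of the 7 genes was 1.90 from A to B, 1.58 from B to C, 1.04 from C to D, 1.24 from D to E and 1.39 from E to F. These intervals hold estimation error within a library only. B1 and B2, which are replicates, had intervals apart in 5 of the 7 genes (57.0%), namely Fdft1, Fdps, Dhcr7, Cyp51 and Insig1, so nonoverlap alone does not set a segment apart.

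The number of calls depended on the scale of the libraries and on single libraries. After rescaling by the median of ratios, 4 of the 7 genes rose (5.24% of all genes), namely Sqle, Lss, Cyp51 and Dhcr7, whereas Fdft1 and Insig1 no longer passed. The fold of F over A was then 6.52 for Sqle, 3.77 for Lss, 3.47 for Insig1, 3.13 for Dhcr7, 2.95 for Cyp51, 1.53 for Fdft1 and 0.708 for Fdps. For Fdps, where the deposited fold was 1.03, F thus lay below A, although its slope stayed positive (0.09). Of all genes called on the deposited scale, 2129 rose and 357 fell, and after rescaling 690 rose and 596 fell. Without F, Sqle and Dhcr7 passed and the other 5 did not (5.48% of all genes rose). The slopes were then 0.60 for Sqle, 0.41 for Insig1, 0.37 for Cyp51, 0.34 for Dhcr7, 0.32 for Lss, 0.28 for Fdft1 and 0.12 for Fdps, which for Sqle, Insig1 and Cyp51 is above the slope with F. Cyp51, Lss, Insig1 and Fdft1 had adjusted p of 0.0541, 0.0682, 0.0704 and 0.137 (limma). Without A, all 7 passed (11.6% of all genes rose), with Fdps at a slope of 0.41 (limma, adjusted p = 0.0436).

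Fdft1 and Fdps, whose values departed from those of the other 5 genes in A and B1, were also the 2 of the 7 with near-identical copies elsewhere in the genome. Copies were sought for the 7 genes only. Among other enzymes of the pathway, given below, the mean of B also lay below A in some. The fold was 0.70 for Idi1, 0.82 for Mvk, 0.91 for Pmvk, 0.92 for Ebp and 0.96 for Mvd, and Idi1 and Ebp were lowest in B1. In each of these enzymes the deposited interval of A overlapped that of B2. Mvd in B1 and Ebp in B2 even stood above A. For Fdft1 and Fdps, by contrast, the interval of A lay above those of both B libraries. The share of all genes with this order was not counted. B lay above A in Acat2, Tm7sf2, Lbr, Msmo1, Nsdhl, Hsd17b7 and Sc5d. At a minimum of 90% identity over 300 nt, the longest GENCODE M21 transcript of Fdft1 matched 1 processed pseudogene, Gm6781 (97.4% over 1249 nt), and that of Fdps matched 5, with up to 98.9% for Gm3571. No such copy was found for Sqle, Dhcr7, Lss, Cyp51 or Insig1. Fragments of 50 nt ends may be divided between a gene and its copies, so the levels of Fdft1 and Fdps are uncertain. Gm6781 was listed at 4.99 FPKM in A, 4.81 and 6.33 in B1 and B2, 10.8 and 10.9 in C and D, 12.8 in E and 18.2 in F. Its level thus lay below that of Fdft1 in all 7 libraries and was also highest in F. With the copy added to Fdft1, A stood at 16.8, B1 at 10.8, B2 at 16.6 and F at 44.5 FPKM, and the slope was 0.34 (limma, adjusted p = 0.0214). How fragments that match both places were counted is not known here, so this sum is not a corrected level. Gm8163, the only copy of Fdps with an entry matched here, was at most 0.427 FPKM, and adding it left Fdps unchanged in its call (slope 0.19, adjusted p = 0.329). The part of the copies in the levels of A and B1 was not tested further.

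**Figure D2:**
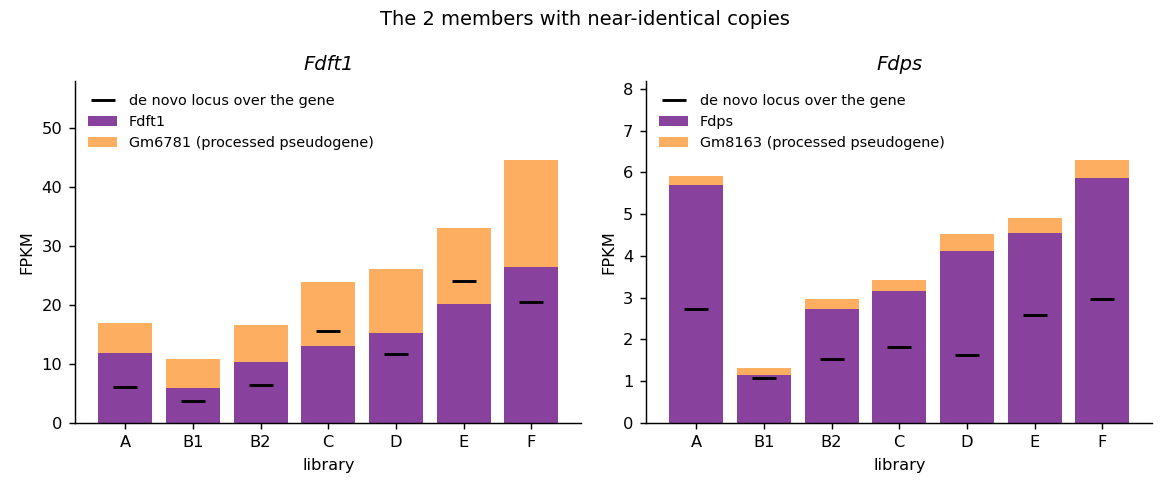
FPKM (linear axis from 0) of Fdft1 and Fdps in each library, with the processed pseudogene copy stacked on top and the de novo locus that overlaps the gene most as a black line. The copy of Fdft1 adds between 4.81 and 18.2 FPKM, and with or without it B1 is the lowest library.

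The authors also assembled loci without the Ensembl models, and these gave a further, rougher estimate for each gene. In each library the locus that overlapped the gene most was taken, without regard to strand. It need not be the same locus in every library, and its intervals were not compared. The locus over Lss had 12.1 FPKM in A and 84.5 in F, that over Sqle 8.46 and 57.7, that over Insig1 15.3 and 86.9, that over Dhcr7 8.13 and 32.3, and that over Cyp51 4.00 and 23.7. All 5 were lowest in A and highest in F, as for the Ensembl models, although the level differed, most for Lss. The locus over Fdft1 had its highest value in E, at 24.1 FPKM, with 20.4 in F, and A stood at 6.12, between B1 at 3.63 and B2 at 6.39. That over Fdps ranged from 1.08 in B1 to 2.97 in F, with 2.73 in A.

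Of the 7 genes, Sqle had 2 Ensembl transcripts with values in several libraries. ENSMUST00000022977 (2727 nt) was listed in every library. ENSMUST00000100640 (2631 nt) had 3.97 FPKM in B1, 1.61 in B2, 1.82 in C and 2.27 in D, and was listed at 0 in A, E and F. It made up 30.8% of Sqle in B1 and 13.1% in B2, so its share differed between the replicates by more than between B2, C (8.44%) and D (10.2%). No transcript in these tables was below 5% of the main one of its locus, so a value of 0 may stand for a low level. The rise of Sqle was carried by the longer transcript, from 4.28 in A to 40.7 FPKM in F.

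The 7 genes followed each other across the libraries to unequal degrees. Over the 21 pairs, Pearson's r of log2(FPKM + 0.1) in the 7 libraries ranged from 0.09 to 0.99, with a median of 0.85. Without Fdps and Fdft1, the 10 pairs lay between 0.93 and 0.99. These are descriptions, since the genes share libraries and the global shift given above. The 5 genes outside the lists used here with the profile most like the mean of the 7 were Stard3nl, Zmpste24, Stt3a, Emc3 and Atp6ap1, with r from 0.994 to 0.998 (7 libraries). Of the 13164 genes, 572 had r above 0.95 and 1640 above 0.9, and the median r was 0.56.

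Calls among the remaining enzymes of the pathway differed by step. In simulated data the test recovered 2% of genes with a slope of 0.2 and 46% of those with 0.4. Far fewer genes carried a trend there than were called here, which made the adjusted cutoff stricter. These shares thus do not give the power of the test here, where Tm7sf2 passed at a slope of 0.20. With 7 libraries, an enzyme that did not pass may still rise. Of the 19 enzymes in the list used here, 18 were tested, 12 rose (16.2% of all genes) and none fell (2.71%). Of the 12 that were not among the genes above, 7 rose, with a median slope of 0.25. After rescaling by the median of ratios 8 of the 18 rose (5.24% of all genes), and without F 4 rose (5.48%).

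In the mevalonate steps, 1 of 6 listed enzymes rose (16.2% of all genes). Acat2, which joins 2 acetyl-CoA, rose by 0.26 ± 0.05 per segment (limma, adjusted p = 0.0191). Its FPKM was 9.74 in A, 10.5 and 13.2 in B1 and B2, 17.8 and 18.9 in C and D, 19.0 in E and 24.6 in F. Those that did not pass were Mvk, Pmvk, Mvd and Idi1, besides Fdps, with slopes of 0.13, 0.02, 0.06 and 0.25. Mvd, for example, lay between 8.35 and 10.2 FPKM in A to E and at 14.5 in F. The 3 enzymes that turn farnesyl pyrophosphate into lanosterol, Fdft1, Sqle and Lss, all rose.

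From lanosterol to cholesterol, 8 of 9 listed enzymes rose (16.2% of all genes). Lbr had the largest slope, 0.48 ± 0.07 (limma, adjusted p = 0.00624), from 0.591 FPKM in A to 4.93 in F. Msmo1, the methyl sterol oxidase, rose from 13.2 to 64.2, Sc5d from 4.39 to 25.8, Hsd17b7 from 1.19 to 9.38 and Nsdhl from 3.17 to 13.5 FPKM. Tm7sf2 had the smallest slope among those that rose, 0.20, from 4.04 FPKM in A to 9.09 in F. Ebp, the sterol isomerase, had a slope of 0.14 (limma, adjusted p = 0.109). The GC content of transcripts was 59.2% for Mvd, 58.8% for Mvk and 55.7% for Pmvk, which did not pass. It was 44.9% for Msmo1, 45.4% for Nsdhl and Sc5d and 46.9% for Cyp51, which rose. Idi1, which did not pass, had 40.6%, and Tm7sf2, which rose, had 56.2%. With GC correction the slope went from 0.35 to 0.20 for Cyp51 and from 0.32 to 0.26 for Fdft1. The part of GC content in the difference between the steps was not tested.

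**Figure D3:**
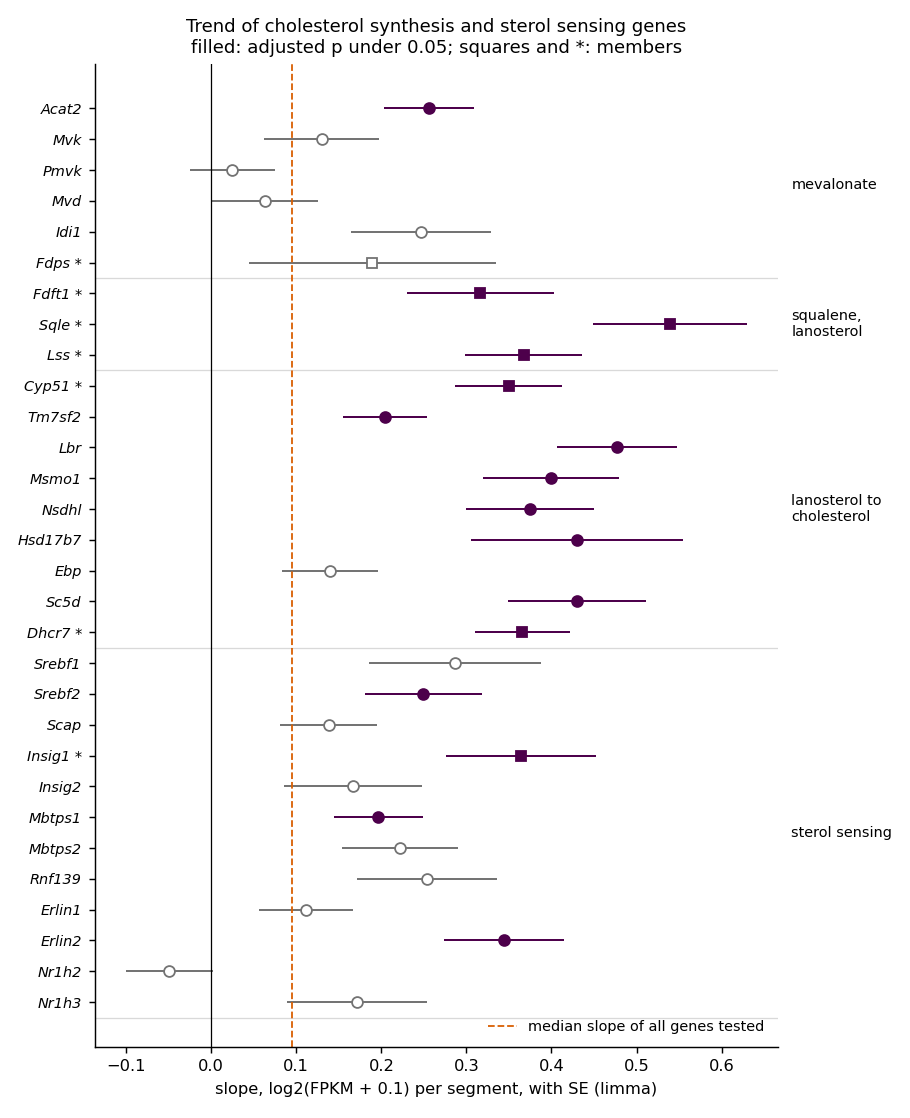
Slope of log2(FPKM + 0.1) per segment with its SE (limma, 7 libraries) for the tested enzymes of the pathway, in the order of the steps, and for genes of sterol sensing. Filled symbols passed an adjusted p of 0.05, squares mark the 7 genes of the set, and the dashed line is the median of all genes tested (0.09). The mevalonate steps hold most of the enzymes that did not pass.

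Of 12 genes of sterol sensing, Insig1 included, 4 rose (16.2% of all genes) and none fell (2.71%). Srebf2, the transcription factor of the pathway, rose by 0.25 per segment (limma, adjusted p = 0.0416), from 25.2 FPKM in A to 75.0 in F, although B1 at 57.0 and B2 at 37.7 differed more than B1 and E. Erlin2, a protein of the endoplasmic reticulum that takes part in sterol sensing, and Mbtps1, the protease that makes the first cut in SREBP, also rose, by 0.34 and 0.20. Srebf1, Scap, Mbtps2, Insig2, Rnf139, Erlin1 and Nr1h3 had slopes between 0.11 and 0.29 and did not pass. Nr1h2, the liver X receptor beta, had a slope of -0.05 and stood at 23.9 FPKM in A and 21.1 in F.

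Among genes of sterol uptake and transfer 5 of 16 rose, where 16.2% of all genes rose and 2.71% fell. Npc1, which exports cholesterol from lysosomes, rose from 3.60 FPKM in A to 31.4 in F (slope 0.50, limma, adjusted p = 0.00629), and Stard4, which carries cholesterol between membranes, from 1.91 to 10.98. Pltp and Apoe had the lowest slopes, -0.25 and -0.21, and did not pass the linear trend. Both passed the linear and quadratic trend (limma, adjusted p = 0.00944 and 0.00938), as did 43.7% of all genes. Both were highest in A, at 58.8 and 1485 FPKM. Of 6 tested genes of sterol turnover, Cyp27a1 rose, from 0.403 to 4.00 FPKM, and Cyp46a1, the neuronal 24-hydroxylase through which the brain disposes of cholesterol, fell by 0.24 on the log2 scale per segment (limma, adjusted p = 0.0444). Cyp46a1 stood at 152 FPKM in A, 87.9 and 83.8 in B1 and B2, 70.3 and 57.0 in C and D, 59.9 in E and 59.0 in F. It was thus highest where Sqle, Npc1 and Stard4 were lowest. Soat1 and Cyp7b1, next to the highest and the lowest slope of the turnover list, had slopes of 0.28 and 0.04 and did not pass.

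Fatty acid synthesis, which SREBP also drives, rose in 7 of 13 genes (16.2% of all genes). The largest slopes were those of Scd1 (0.45, from 16.1 to 138 FPKM) and Acaca (0.42), and the smallest those of Thrsp and Fads1, both at 0.05. In the isoprenoid branches, which draw on farnesyl pyrophosphate without making sterols, 3 of 12 rose (16.2% of all genes). Pggt1b (0.27) and Pdss2 (0.25) had the largest slopes of that list and did not pass, and Rabggta (0.02) and Coq2 (-0.03) the smallest.

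Markers of oligodendrocytes moved with the cholesterol genes. All 11 used here rose (16.2% of all genes), with a median slope of 0.89. Their median fold of F over A was 31.3, against 4.56 for the 7 cholesterol genes. Their summed level was 343 FPKM in A, 875 and 886 in B1 and B2, 1708 and 2289 in C and D, 4251 in E and 12972 in F, and none was at 0 in any library. Mobp and Ugt8a had the largest slopes (1.05 and 0.98) and Opalin and Cnp the smallest (0.76 and 0.79). Of 8 markers of oligodendrocyte precursors and of the lineage 7 rose. Sox10 (0.72) and Olig1 (0.57) were the highest, with Cspg4 at 0.24 and Bmp4 at 0.08, which did not pass. Sox10, Olig1 and Olig2 are genes of the whole lineage, not of precursors alone. The summed level of that list ran from 24.7 FPKM in A to 247 in F, where Olig1 stood at 133, Sox10 at 52.2 and Olig2 at 25.3. Pdgfra went from 1.00 FPKM in A to 8.05 in F and Cspg4 from 1.02 to 2.64.

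The steps of both sets are given side by side. The median fold of the oligodendrocyte markers was 2.39 from A to B, 1.85 from B to C, 1.31 from C to D, 1.84 from D to E and 3.02 from E to F, and that of all genes was 1.21, 1.13, 1.02, 1.04 and 1.02. By the median, the largest step of the 7 cholesterol genes was from A to B. That of the oligodendrocyte markers was from E to F. Fdft1 and Fdps differed from the median of the 7 genes, with folds of 0.685 and 0.340 from A to B. Their largest folds, 1.61 and 1.63, were from B to C. The 12 enzymes outside the set had medians of 1.24 from A to B, 1.42 from B to C and 1.31 from E to F. In the mevalonate steps, Fdps included, the median was 0.867 from A to B. Their largest median step was from E to F, at 1.29. The part of oligodendrocyte content in the rise of the cholesterol genes was not tested, and it cannot be told apart from the segment in these libraries.

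**Figure D4:**
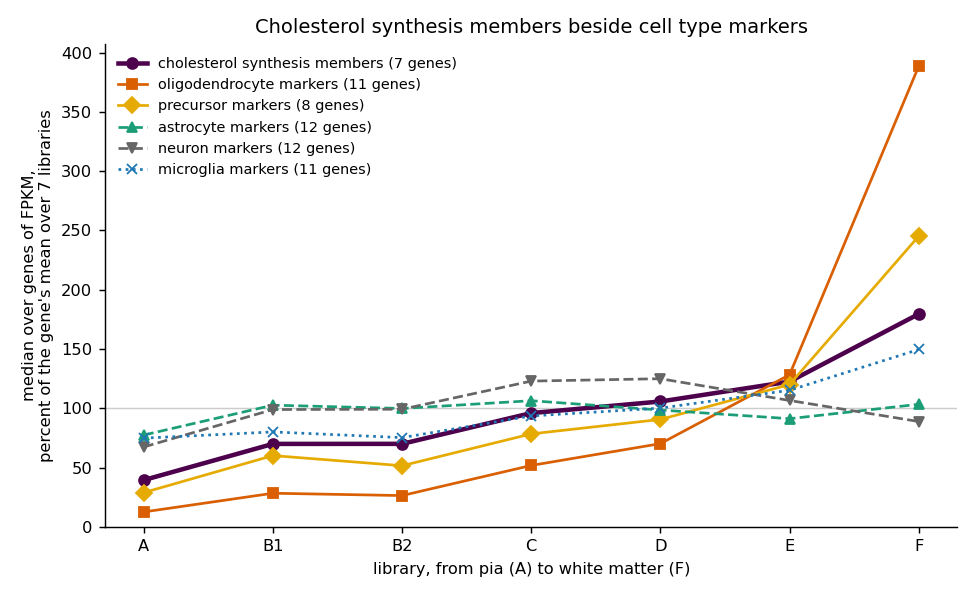
Median over the genes of a list of the FPKM in a library as a percentage of the gene's mean over the 7 libraries, for the 7 cholesterol synthesis genes and for markers of 5 cell types. The cholesterol genes go from 39.4% in A to 179% in F and the oligodendrocyte markers from 12.5% to 388%. The precursor markers, which include the lineage genes Sox10, Olig1 and Olig2, go from 28.8% to 245%. The microglia markers go from 74.8% to 150%, while the astrocyte and neuron markers stay between 67.3% and 125%.

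Markers of other cell types are given with the same linear trend, in which 16.2% of all genes rose and 2.71% fell. The linear and quadratic trend, which 43.7% of all genes passed, is given beside it. Of 12 astrocyte markers 1 rose, Aqp4 (slope 0.42), and their summed level lay between 1024 FPKM in E and 1361 in F, with Gfap at 0.52, S100b at -0.13 and Aldoc at -0.11, none of which passed. Gfap stood at 34.4 FPKM in A, 4.42 in C and 126 in F, and it passed the linear and quadratic trend (limma, adjusted p = 0.00249). The linear and quadratic trend passed in 4 of the 12 astrocyte, 8 of the 12 neuron, 7 of the 10 interneuron, 6 of the 11 microglia and 2 of the 10 endothelial markers. Of 12 neuron markers none rose and Rbfox3 fell by 0.32 on the log2 scale per segment, and their sum lay between 2609 in A and 4907 in D. Syt1 and Map2 had slopes of 0.25 and 0.21 and Nefm one of -0.23. Of 10 interneuron markers none rose and Vip fell by 0.27 per segment, with Gad2 at 0.23, Gad1 at 0.14 and Pvalb at -0.33, and their sum lay between 762 in F and 1137 in D. Of 11 microglia markers 6 rose, led by P2ry12 (0.47) and Ctss (0.35), with C1qa at -0.03 and Aif1 at -0.06, and the sum ran from 94.95 in B2 to 177 in F. Of 10 endothelial markers 1 rose, Itm2a (0.27), with Slc2a1 at 0.13, Flt1 at -0.12 and Cldn5 at -0.26, and the sum lay between 87.0 and 112 FPKM.

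Segment A, where Fdps and, in the Ensembl models, Fdft1 stood above both libraries of layer 4, also held the most signal of meninges and blood. The 8 meningeal markers summed to 1765 FPKM in A and to between 79.5 and 277 in the other libraries, mostly through Ptgds. The 3 blood markers matched of 5 summed to 739 in A and to between 66.5 and 97.2 elsewhere. None of the 4 meningeal and 3 blood markers tested passed the linear trend, with slopes from -0.42 for Col1a2 to -0.20 for Alas2, and Hba-a1 at -0.40, Hba-a2 at -0.33, Dcn at -0.29, Ptgds at -0.26 and Igf2 at -0.24 between them. The linear and quadratic trend passed in all 4 meningeal and in 2 of the 3 blood markers. The part of meninges and blood in the level of Fdps and Fdft1 in A was not tested. In B1, where both genes were lowest, the sums were 79.5 FPKM for meninges and 66.5 for blood, and in B2 they were 108 and 95.9.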

How the data were processed

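RNA-seq of 7 S1 libraries was used, whose genes and transcripts the authors quantified as FPKM with 95% intervals by Cufflinks 0.8.3, after mapping with TopHat 1.0.13 to mm9, against Ensembl models. The FPKM values are deposited on a linear scale, and the coverage that the authors deposited for transcripts is the estimated fold read coverage, used here only to estimate depth. The depth of F is an upper estimate, since 50 nt was assumed for every read. Genes without an entry in a library were taken as 0, and 8 to 15 genes listed at 2 places were summed. Positions are mm9, and GENCODE M21 and RefSeq (GRCm38.p6) served only for names, GC content, copies (blastn 2.17.0) and promoter letters. One transcript of Dhcr7 was matched by position.

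Trends over the segments (A to F as 1 to 6) were fitted for all 13164 genes averaging 1 FPKM or more, on log2(FPKM + 0.1) with limma 3.58.1 in R 4.3.3, which leaves 5 residual degrees of freedom and assumes that single libraries scatter like each other. P-values were Benjamini-Hochberg adjusted and called at 0.05, and a linear and quadratic trend was an alternative model. Fold changes on the log2(FPKM + 0.1) scale understate the change of low genes. The fit was tested on simulated data, where it recovered 0% of genes with a slope of 0.1, 2% with 0.2, 46% with 0.4 and 88% with 0.8. Far fewer genes carried a trend there than were called in the real data. The adjusted cutoff was therefore stricter, and these shares are not the power of the test on the real data. P-values rest on pooled mice and on 1 library for all segments but B. The genes and lists were chosen with earlier results of these data known. A few genes of the lists are not reported here and were left out of their counts and sums. All 8 genes, and all other enzymes and genes of sterol sensing kept in the lists, were named, in every other list the 2 genes with the highest and the 2 with the lowest slope, and the 5 genes outside the lists with the highest Pearson r to the mean profile. Genes outside this rule, the pseudogene copies, appear only where a result turns on them. Alternatives varied the pseudocount, the filters, the scale, GC content, the treatment of B1 and B2, each library in turn and the intervals, and copies were added to their gene after seeing the data.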

Additional observations from a re-analysis of the deposited data

How the results depend on the processing

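The number of the 7 cholesterol genes with a rising trend was 6 as reported and 4 to 6 under the other planned settings that keep all libraries, and it ran from 2 (without F) to 7 (without A) when 1 library was left out. Fdft1 no longer passed under a minimum mean of 0.1 FPKM or none, under each rescaling, with GC correction, and without B2, C, D, E or F. Insig1 was lost under both rescalings, with GC correction and without D, E or F, and Lss and Cyp51 only without F. None of the 119 refitted slopes of these genes changed sign, and none of the genes fell. The count of rising enzymes, which was not a planned result, was 12 as reported. It was 8, 8 and 9 under the median of ratios, without mitochondrial genes and with GC correction, and 4 to 12 with 1 library left out. Over all genes, 2129 rose, 357 fell and 5749 had a linear and quadratic trend (6 of the 7 cholesterol genes, 43.7% of all genes). The median of ratios gave 690 rising and 596 falling, rescaling without mitochondrial genes 743 rising, and GC correction 753 rising, 548 falling and 3639 with a linear and quadratic trend, over 12633 genes. With 1 library left out, 632 to 2228 genes rose, 112 to 471 fell and 1686 to 7933 had a linear and quadratic trend. The median share in E and F was 49.1% as reported, 45.0% under the median of ratios, 46.9% without mitochondrial genes, 46.5% with GC correction, 53.2% for the de novo loci, and 48.0% to 50.1% with B1 or B2 left out. With intervals widened 2 times, B1 and B2 were apart in 3 genes, Fdft1, Fdps and Insig1, instead of 5 (34.1% of all genes), and after the median of ratios in 6 (57.2%). The cause of these changes was not tested. No paired analysis was possible, because the segments of the same 8 mice were pooled and only B was kept apart by litter. Depth limits Fdps most, with about 38 estimated fragments in B1.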
